A study of Mus musculus with 30 samples.

Results

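The 32 genes described here are autophagy and mitophagy genes, taken by name from the 57180 genes of a mouse liver RNA sequencing table. They cover sensors and receptors that mark mitochondria for removal, receptors for other cargo, and the machinery that builds the autophagosome. A transcription factor and membrane proteins of the lysosome complete the set. The list follows function and was drawn up with earlier results of these data known, and all 32 passed the filter on low counts in every fit. Each was found under its listed symbol.

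The series tested UB-NPs, a preparation that the labels do not spell out, in mice on a high-fat diet, in a prevention study and a treatment study. In the prevention study, which ran for 10 weeks, UB mice were gavaged with UB-NPs at 60 mg/kg/day while on the high-fat diet. MC mice received water with that diet, and NC mice received water with a standard diet. In the treatment study, Uro mice were made obese by 10 weeks of high-fat diet and then had 8 weeks of the same diet with UB-NPs at 60 mg/kg/day. HFD mice had the same diets with water, and NFD mice a standard diet with water, over 18 weeks in all. Each of the 6 groups had 5 liver libraries, against 10 mice per group in the design. The labels give neither strain nor sex, and do not say that a library is 1 mouse, so p-values measure the spread between these libraries.

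In autophagy, a membrane grows around cytoplasm or a damaged organelle, closes into an autophagosome and fuses with a lysosome, where hydrolases degrade the cargo. Proteins of the ATG8 family (LC3 and GABARAP) are joined to lipid in the growing membrane and bind receptors that carry the cargo. In mitophagy the cargo is a mitochondrion, marked by the kinase PINK1 or by receptors in its own membranes. In hepatocytes this pathway degrades lipid droplets, mitochondria and protein aggregates. LC3 and p62 (the product of Sqstm1) are consumed by autophagy, so that transcript levels such as those measured here do not give its rate.

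Total counts were between 17.0 and 24.3 M per library (M, 1000000 counts). Transcripts of mitochondrial genes and their nuclear copies took 14.1% to 21.6% of the counts in Uro libraries, against 59.1% to 82.3% in HFD and 56.2% to 81.1% in NFD libraries. The shares were 41.8% to 52.0% in UB, 38.6% to 69.1% in MC and 61.5% to 73.4% in NC libraries. The counts left for all other genes were therefore 15.6 to 19.7 M in Uro libraries, against 3.14 to 8.31 M in HFD and 3.44 to 7.45 M in NFD libraries. The labelled tissue carried its markers, as all 8 hepatocyte markers were present in each group. Their summed level was 39072 to 54373 CPM in Uro libraries, against 11553 to 27858 CPM in HFD and 20141 to 33099 CPM in NFD libraries. In bulk liver, fewer cells of a type and less RNA per cell cannot be told apart.

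Levels are given as CPM (counts per 1000000), on a trimmed-mean (TMM) scaling shared by the 30 libraries. Per kb of the length in the count table, and averaged over the 6 groups, Bnip3 stood at 113, Sqstm1 at 111, Lamp2 at 76.7, Gabarap at 71.4 and Phb2 at 67.0 CPM per kb. Gabarapl1 stood above them at 372 CPM per kb, on a deposited length of 539 bases, whereas its longest annotated transcript has 3325 bases. At the other end, Atg9a stood at 1.56, Rubcn at 1.68 and Fundc1 at 1.78 CPM per kb. The core conjugation genes lay between, from Atg3 at 16.97 to Atg12 at 2.36 CPM per kb. Receptors stood at both ends of this order, with Bnip3 and Sqstm1 near the top and Bcl2l13 (1.93) and Fundc1 near the bottom.

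In obese mice on continued high-fat diet, 13 of the 32 genes differed between Uro and HFD livers, 10 higher and 3 lower. Calls rest on edgeR's quasi-likelihood test, with Benjamini-Hochberg adjustment over all genes and a threshold of 0.05. The rises lay in the ATG8 family (Map1lc3a, Gabarap, Gabarapl1), both lysosomal membrane proteins (Lamp1, Lamp2), mitophagy genes (Pink1, Phb2), the receptors Sqstm1 and Calcoco1, and Atg9a. The falls were the cargo receptors Tax1bp1 and Nbr1 and the initiation kinase Ulk1, each of which had a positive value on the deposited TPM scale. The called share of 40.6% stood beside 27.1% of the 14163 genes tested, of which 15.3% were higher and 11.7% lower. The members' median log2 fold change was 0.25, against -0.08 over all genes tested. The balance depended on scaling: 28 were called higher and 0 lower on deposited TPM, where the median of all genes was 0.55, and 4 higher and 11 lower on TPM rescaled without mitochondrial genes, where it was -0.51. Of 14163 genes tested on deposited TPM, 7846 were called higher and 151 lower. Of 14139 tested on rescaled TPM, 600 were called higher and 5239 lower. On rescaled TPM, Map1lc3a (0.82), Gabarap (0.78), Lamp1 (0.68) and Sqstm1 (0.43) were the 4 members still called higher. Pink1 (0.33, limma adjusted p = 0.0708), Phb2 (0.37, 0.051), Atg9a (0.81, 0.058), Lamp2 (0.28, 0.147) and Gabarapl1 (0.0851, 0.808) were not called there.

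**Figure D1:**
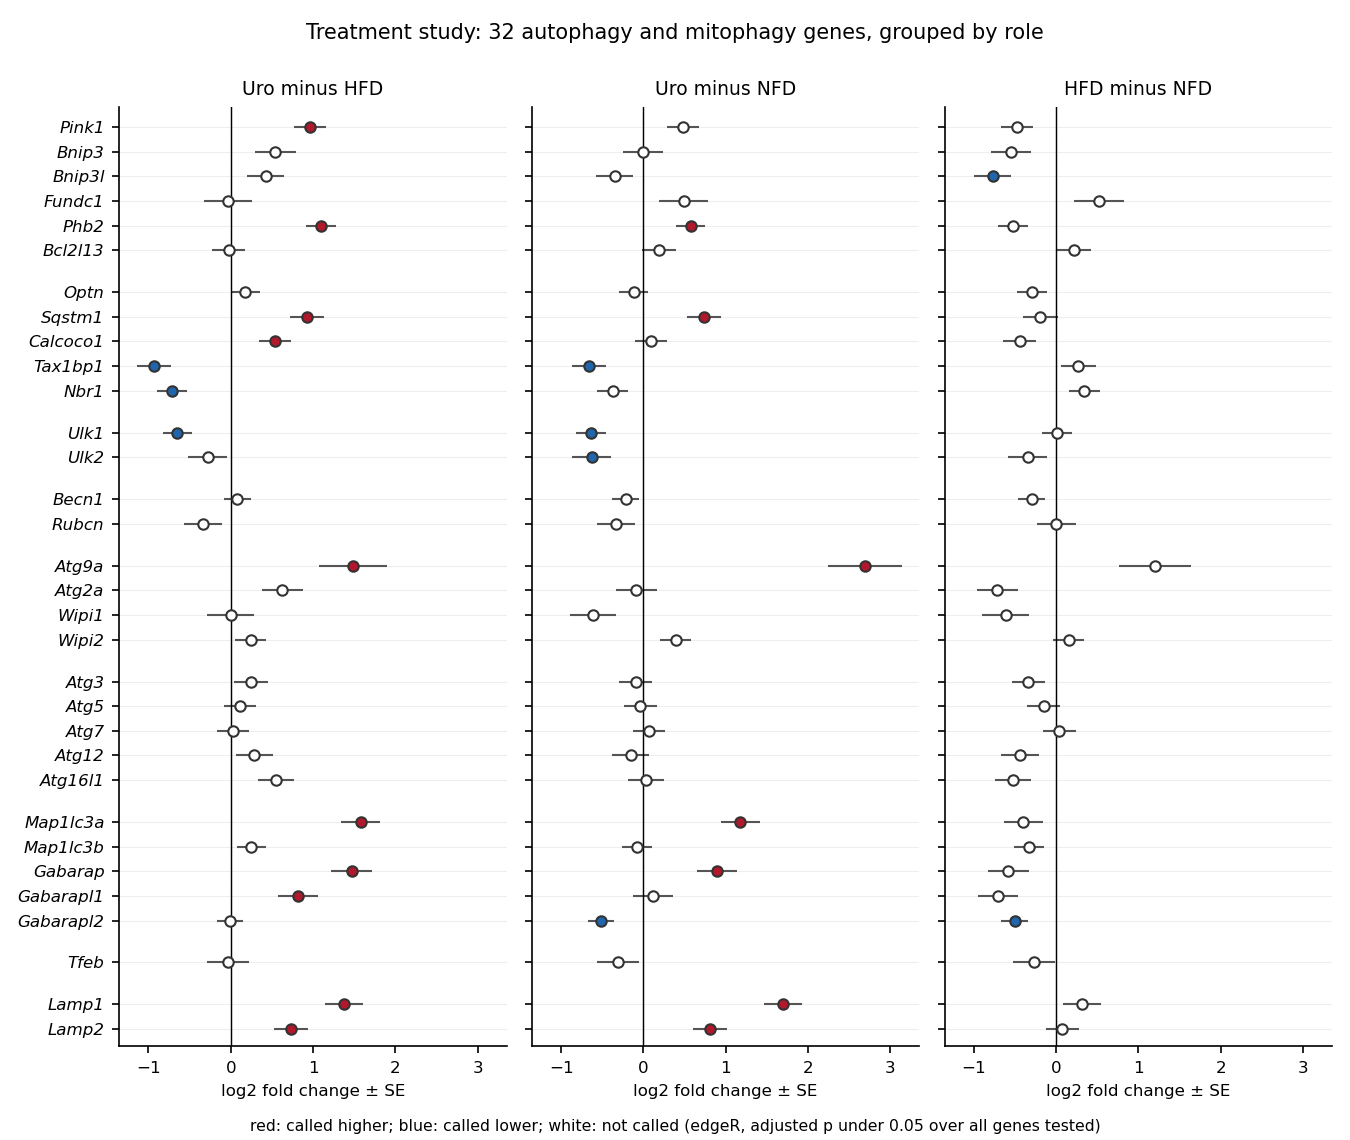
Log2 fold changes (horizontal axis, with SE) of the 32 genes in the 3 comparisons of the treatment study, with genes grouped by role from mitophagy receptors at the top to lysosomal membrane proteins at the bottom. Red points were called higher and blue points lower; on the unadjusted TPM scale Tax1bp1, Nbr1 and Ulk1 changed sign against HFD, and Tax1bp1, Ulk1, Ulk2 and Gabarapl2 against NFD, while Calcoco1 did against HFD on rescaled TPM.

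The ATG8 family divided. Map1lc3a, which encodes LC3A, had 30.8, 41.8, 45.6, 32.4 and 25.3 CPM in the Uro libraries, against 12.8, 11.8, 13.7, 12.4 and 9.23 CPM in the HFD libraries. Gabarap, which acts late in autophagosome formation, had 109, 108, 136, 122 and 128 CPM in Uro libraries, against 62.5, 43.4, 48.7, 43.9 and 23.0 CPM in HFD libraries. In both genes every Uro library lay above every HFD library. The log2 fold changes were 1.58 ± 0.24 (SE) for Map1lc3a (edgeR adjusted p = 5.8e-05) and 1.47 ± 0.25 for Gabarap (adjusted p = 0.000166). Gabarapl1, also called Gec1, had 104, 161, 165, 129 and 142 CPM in Uro libraries, against 83.3, 88.5, 99.4, 85.1 and 48.5 CPM in HFD libraries. Its groups did not overlap either, with a log2 fold change of 0.82 ± 0.25 (adjusted p = 0.0163), and without HFD replicate 5 the adjusted p was 0.0514. The remaining 2 were not called. Map1lc3b, the LC3 form most often used as an autophagosome marker, averaged 72.5 ± 13.4 CPM in Uro and 62.0 ± 5.14 CPM in HFD libraries (SD, n = 5 each). Gabarapl2 averaged 22.7 ± 1.54 CPM in Uro and 23.2 ± 4.42 CPM in HFD libraries.

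Lamp1 and Lamp2 encode the most abundant glycoproteins of the lysosomal membrane, and LAMP2 is needed for autophagosome clearance and chaperone-mediated autophagy. Lamp1 had 205, 220.1, 253, 211 and 215 CPM in Uro libraries, against 93.9, 68.0, 123, 86.1 and 60.6 CPM in HFD libraries. Lamp2 had 209, 224, 206, 204 and 249 CPM in Uro libraries, against 103, 143, 183, 114 and 125 CPM in HFD libraries. Neither gene's groups overlapped. Lamp1 rose by 1.38 ± 0.23 (log2, edgeR adjusted p = 0.000146) and Lamp2 by 0.73 ± 0.20 (adjusted p = 0.01). Tfeb, whose product switches on lysosomal and autophagy genes, averaged 8.10 ± 2.06 CPM in Uro and 8.46 ± 1.80 CPM in HFD libraries (SD, n = 5 each), and was not called.

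Among the 6 mitophagy genes, 2 rose and 4 were not called. Pink1, the kinase that accumulates on depolarised mitochondria and recruits Parkin, had 129, 146, 158, 131 and 142 CPM in Uro libraries, against 65.7, 76.0, 79.9, 82.7 and 63.7 CPM in HFD libraries. Phb2, an inner-membrane protein that binds LC3 once the outer membrane is broken, had 104, 102, 135, 107 and 125 CPM in Uro libraries, against 43.6, 74.0, 59.0, 52.0 and 43.5 CPM in HFD libraries. All Uro libraries stood above all HFD libraries in both. The log2 fold changes were 0.96 ± 0.20 for Pink1 (edgeR adjusted p = 0.000869) and 1.10 ± 0.18 for Phb2 (adjusted p = 0.000125). Bnip3l, the receptor also known as NIX, had 41.3, 42.7, 34.2, 35.6 and 42.3 CPM in Uro libraries, against 33.2, 32.4, 29.3, 31.0 and 23.2 CPM in HFD libraries. Although its groups did not overlap, its log2 fold change of 0.42 ± 0.23 had an adjusted p of 0.175. Its relative Bnip3, a hypoxia-induced receptor, was at 0.54 ± 0.25 (adjusted p = 0.109), with HFD libraries at 139 and 194 CPM among the Uro values of 136 to 217 CPM. Fundc1 and Bcl2l13, receptors of the outer membrane, had log2 fold changes of -0.03 each.

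The 5 cargo receptors moved both ways. Sqstm1, which encodes p62 and carries ubiquitin-tagged cargo, had 193, 266, 351, 250.5 and 234 CPM in Uro libraries, against 131, 131, 147, 171 and 111 CPM in HFD libraries, with no overlap. It rose by 0.93 ± 0.21 (log2, edgeR adjusted p = 0.00214). Tax1bp1, another ubiquitin-binding receptor, had 73.6, 43.6, 41.9, 59.1 and 71.7 CPM in Uro libraries, against 128, 101, 129.9, 110.0 and 94.6 CPM in HFD libraries. Nbr1, a receptor that works with p62, had 71.4, 42.7, 44.8, 62.0 and 68.7 CPM in Uro libraries, against 82.3, 93.4, 83.5, 124 and 100.003 CPM in HFD libraries. For both, every Uro library lay below every HFD library. Tax1bp1 was at -0.93 ± 0.21 (adjusted p = 0.0022), but at 0.12 on the deposited TPM scale, where the median of all genes was 0.55, and so at -0.43 relative to that median. Nbr1 was at -0.71 ± 0.19 (adjusted p = 0.00668), but at 0.42 on the TPM scale, or -0.13 relative to the median. Calcoco1, a receptor for endoplasmic reticulum and Golgi cargo, averaged 21.5 ± 4.23 CPM in Uro and 15.0 ± 2.44 CPM in HFD libraries (SD, n = 5 each). Its log2 fold change of 0.54 ± 0.20 (adjusted p = 0.0477) missed the threshold in 7 of 10 fits without 1 library (adjusted p up to 0.129), and was -0.18 on TPM values rescaled without mitochondrial genes, whose median over all genes was -0.51. Optn, a receptor in Parkin-dependent mitophagy, averaged 55.2 ± 3.75 CPM in Uro and 49.7 ± 8.24 CPM in HFD libraries and was not called.

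Upstream of these, Ulk1 encodes the kinase that starts autophagosome formation. It had 19.7, 25.0, 24.9, 20.2 and 16.0 CPM in Uro libraries, against 33.2, 37.5, 37.4, 32.1 and 28.4 CPM in HFD libraries, without overlap. The log2 fold change was -0.65 ± 0.18 (edgeR adjusted p = 0.0102), but 0.42 on the TPM scale, or -0.13 relative to the median there. Its relative Ulk2 averaged 14.1 ± 2.49 CPM in Uro and 17.5 ± 4.16 CPM in HFD libraries (SD, n = 5 each), and was not called. Becn1, a subunit of the lipid kinase complex, and Rubcn, an inhibitor of that complex, were at 0.08 and -0.34 on the log2 scale, neither called. None of the 5 conjugation genes was called by edgeR, or at an unadjusted p under 0.05 other than Atg16l1 (log2 fold change 0.55 ± 0.22, adjusted p = 0.0659). Atg3, Atg5, Atg7 and Atg12, which carry out the steps that attach ATG8 proteins to lipid, lay between 0.03 and 0.28.

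Atg9a, the lipid scramblase whose vesicles seed the autophagosome, had the largest log2 fold change after Map1lc3a. It had 16.5, 18.1, 19.9, 14.0 and 16.9 CPM in Uro libraries, against 1.76, 5.94, 11.2, 2.84 and 8.67 CPM in HFD libraries. The groups did not overlap, and the log2 fold change was 1.49 ± 0.42 (edgeR adjusted p = 0.0125). However, Atg9a overlaps on the same strand with Gm29253, a long noncoding RNA gene whose counts moved the other way. Gm29253 averaged 2.21 CPM in Uro and 5.98 CPM in HFD libraries (log2 fold change -1.40 ± 0.43, adjusted p = 0.0193). The sum of both was 15.4 to 22.2 CPM in Uro libraries, against 10.1 to 15.3 CPM in HFD libraries, with means of 19.3 and 12.1 CPM. How reads of the shared bases were divided is not given in the sources used here, so the rise of Atg9a is uncertain in size. Of the other membrane-supply genes, Atg2a, a lipid transfer protein, was at 0.63 ± 0.25 (adjusted p = 0.0649), and the phosphoinositide-binding Wipi1 and Wipi2 were not called.

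**Figure D2:**
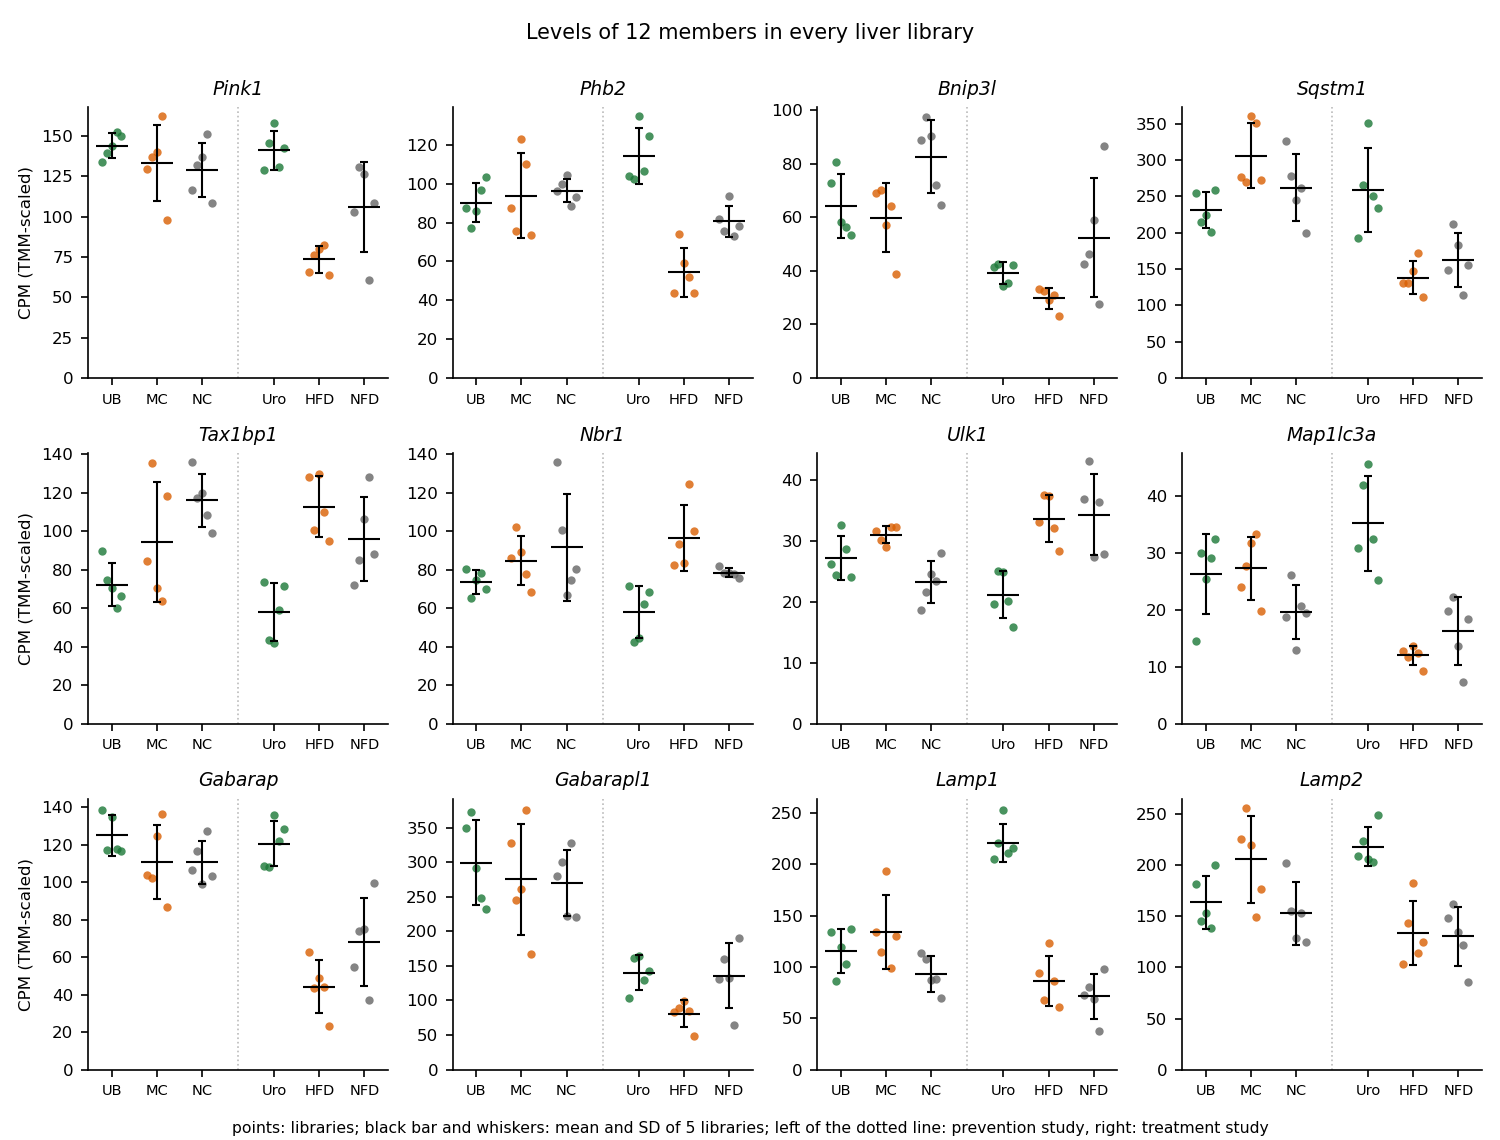
CPM of 12 of the genes (vertical axes, linear from 0) in every library of UB, MC, NC, Uro, HFD and NFD livers, with the mean and SD of 5 libraries. In Pink1, Gabarap and Map1lc3a the HFD libraries form the lowest group, while Lamp1 stands highest in the 5 Uro libraries, at 205 to 253 CPM.

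Other genes overlap members on the opposite strand. Bnip3 overlaps Gm45507, a noncoding RNA gene that averaged 0.579 CPM in Uro and 44.6 CPM in HFD libraries (log2 fold change -6.26 ± 1.01, edgeR adjusted p = 0.000532). Pink1 overlaps Ddost, a subunit of the oligosaccharyltransferase, which also rose in Uro livers (1.13 ± 0.21, adjusted p = 0.00051). Lamp1 overlaps Grtp1, which was not called (0.35 ± 0.22, adjusted p = 0.265). Atg9a overlaps Ankzf1, which was lower in Uro than in HFD livers (-0.80 ± 0.23, adjusted p = 0.0138) and NFD livers (-1.40 ± 0.24, adjusted p = 0.000145). Atg3 overlaps Slc35a5, which was lower in Uro than in HFD livers (-1.23 ± 0.24, adjusted p = 0.000699) and was not called in MC against NC (0.78 ± 0.31, adjusted p = 0.102). Sqstm1 overlaps Mgat4b, which rose in Uro livers (0.82 ± 0.24, adjusted p = 0.0133), and Mrnip, which was lower in UB than in MC livers (-1.74 ± 0.38, adjusted p = 0.0329). The libraries were stranded, per the labels' protocols, but whether the counting used strand is not given in the sources used here. Reads of such pairs may therefore be shared.

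Against lean NFD livers, with which HFD livers also share a fit, 11 genes were called in Uro livers, 7 higher and 4 lower, a share of 34.4% beside 28.4% of all genes tested (16.1% higher, 12.3% lower). Lamp1 led by adjusted p, with 72.8, 80.2, 69.0, 37.5 and 97.9 CPM in the NFD libraries below all Uro values given above. It stood 1.70 ± 0.23 higher in Uro livers on the log2 scale (edgeR adjusted p = 1.95e-05). Atg9a was 2.69 ± 0.45 higher (adjusted p = 0.000217), again opposite to Gm29253, at -2.29 ± 0.43 (adjusted p = 0.000542). Map1lc3a (1.18), Gabarap (0.89), Lamp2 (0.81), Sqstm1 (0.74) and Phb2 (0.57) were the others called higher, and for Phb2 the adjusted p was 0.0547 without Uro replicate 3. With an offset for length and GC content the balance was 4 higher and 6 lower, and Phb2 (0.0111, adjusted p = 0.971), Sqstm1 (0.35, adjusted p = 0.188) and Gabarap (0.46, adjusted p = 0.159) were not called. On TPM rescaled without mitochondrial genes it was 5 higher and 8 lower, and on deposited TPM 32 higher and 0 lower. Of all 14163 genes tested, 1619 were called higher and 2467 lower with the offset, and 10493 higher and 221 lower on deposited TPM. On rescaled TPM, 931 of 14139 were higher and 2877 lower. The members called lower in the main fit were Tax1bp1 (-0.66), Ulk1 (-0.63), Ulk2 (-0.63) and Gabarapl2 (-0.51). On the TPM scale, where the median of all genes was 0.76, these 4 were at 0.72, 0.74, 0.58 and 1.12. Relative to that median they were at -0.04, -0.02, -0.18 and 0.36. Pink1, called against HFD, averaged 141 ± 11.9 CPM in Uro and 106 ± 27.9 CPM in NFD libraries (SD, n = 5 each; log2 fold change 0.48 ± 0.19, adjusted p = 0.0668).

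Ulk2 and Gabarapl2 were the calls not seen against HFD. Ulk2 had 17.6, 14.5, 10.7, 14.4 and 13.4 CPM in Uro libraries, against 16.0, 22.2, 19.6, 17.8 and 39.3 CPM in NFD libraries, and its call was lost in 7 of 10 fits without 1 library (4 Uro and 3 NFD libraries; edgeR adjusted p up to 0.193, without the highest NFD library). Gabarapl2 had 22.2, 22.8, 25.1, 22.8 and 20.8 CPM in Uro libraries, against 34.9, 36.1, 31.7, 32.6 and 34.5 CPM in NFD libraries, with no overlap between the groups and an adjusted p of 0.0554 without Uro replicate 5. Tax1bp1 lost its call against NFD in 3 of 10 fits without 1 library (Uro replicate 2, Uro replicate 3 or NFD replicate 4), with an adjusted p up to 0.071.

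The number of genes called for the diet in the treatment study varied with the fit. Between HFD and NFD livers 2 were called, both lower, or 6.25% beside 13.2% of all genes tested (7.19% higher, 5.96% lower). Bnip3l had 33.2, 32.4, 29.3, 31.0 and 23.2 CPM in HFD libraries, against 42.5, 46.4, 59.1, 27.5 and 86.9 CPM in NFD libraries. Erythroid markers, from cells in which Bnip3l is also expressed, were lower in HFD livers for 4 of 5 (median log2 fold change -2.22), with sums of 133 to 1380.3 CPM in HFD and 1297 to 4086 CPM in NFD libraries and none at 0. Hepatocyte markers were lower for 3 of 8. Their part in the fall of Bnip3l was not tested. Its groups overlapped, through 1 NFD library at 27.5 CPM, and the log2 fold change was -0.77 ± 0.23 (edgeR adjusted p = 0.0289). Gabarapl2 averaged 23.2 ± 4.42 CPM in HFD and 34.0 ± 1.81 CPM in NFD libraries (SD, n = 5 each), which is -0.51 ± 0.16 on the log2 scale (adjusted p = 0.0407). Across the set, 21 of 32 log2 fold changes lay below 0, with a median of -0.31 against 0.03 over all genes tested. Bnip3l lost its call in 5 and Gabarapl2 in 7 of 10 fits without 1 library (adjusted p up to 0.0849 and 0.128). Counts were 7 with DESeq2 (1 higher, 6 lower), 8 in the fit of all 30 libraries and 10 with the length and GC offset (all lower in both), against 0 on deposited TPM and with the 10 libraries alone. Of all genes, 2618 were called with DESeq2 (1236 lower), 2016 in the fit of 30 libraries (1205 lower) and 2606 with the offset (1778 lower). They numbered 625 on deposited TPM and 1081 with the 10 libraries alone, beside 1863 in the main fit. The member count was 0 without HFD replicate 4, HFD replicate 5 or NFD replicate 3, 1 without NFD replicate 1 or 2, 4 without HFD replicate 2 and 7 without NFD replicate 4. Without those libraries, in the same order, 1178, 1108, 1434, 1572, 1477, 2140 and 2341 of all genes were called.

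Several measures moved with the contrast of Uro and HFD livers. The mitochondrial share did not overlap between the groups, so that the treatment and whatever sets this share cannot be told apart. With the share as a covariate, 0 of the 32 genes, and 2 of all genes tested, were called by edgeR. Hepatocyte markers rose with Uro, 6 of 8 called higher and 0 lower (median log2 fold change 1.12). Their part in the members' rises was not tested. Fold changes also followed length across all genes tested: ranked by length and cut into 5 equal parts, the median was 0.37 in the shortest genes and -0.32 in the longest. Across the 32 members Spearman's rho of fold change and length was -0.43, a description over genes measured in the same libraries. The members called higher had a median length of 2110.5 bases (539 to 4218), and those called lower 3285 to 3581 bases. With an offset for length and GC content, 14 members were called, 11 higher and 3 lower, and with counts thinned to a common 3.14 M non-mitochondrial counts, 13 were called. Of all genes, 3326 of 14163 were called with the offset (1850 higher, 1476 lower) and 3504 of 12110 with thinned counts. Gabarapl1 was at 0.43 with the offset (adjusted p = 0.194).

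**Figure D3:**
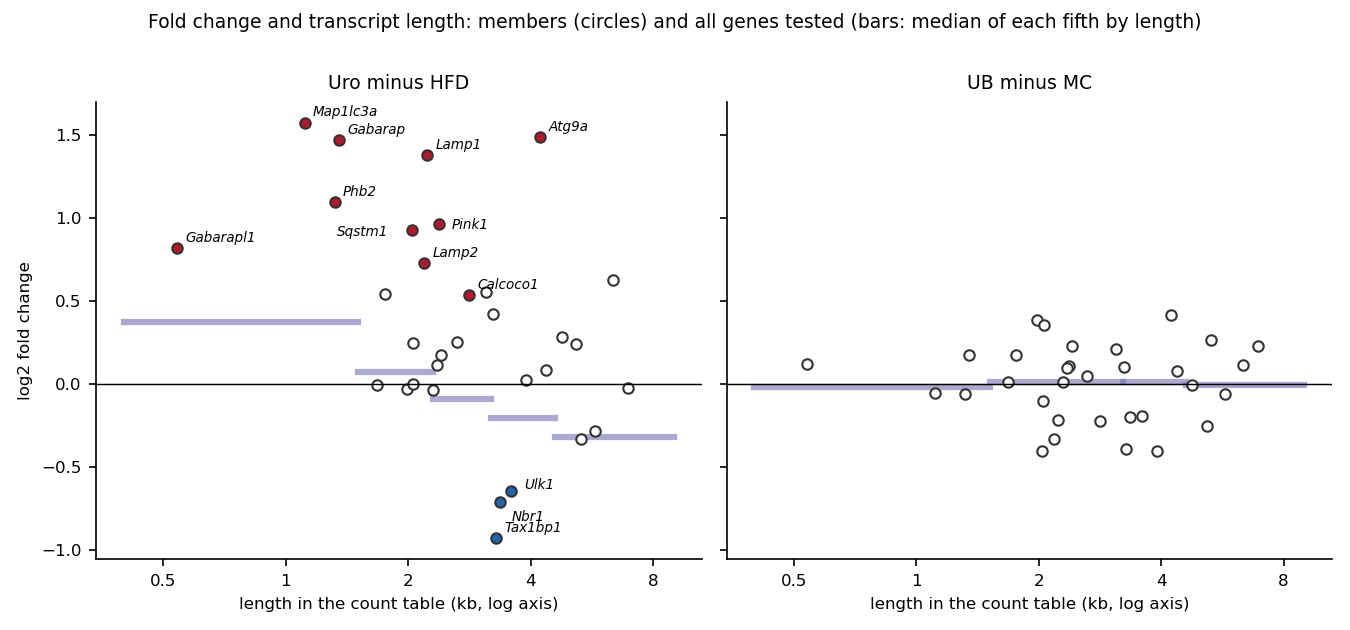
Log2 fold change (vertical axis) against the length in the count table (kb, log axis) for the 32 genes in Uro against HFD and in UB against MC livers, with bars at the median of all genes tested in each of 5 equal parts by length (the outermost bars are cut at the ends of the axis). In Uro against HFD the bars step down from 0.37 to -0.32, whereas in UB against MC they stay between -0.02 and 0.01.

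In the prevention study, UB-NPs given with the diet from the start left the set with no call. Between UB and MC livers 0 of the 32 genes were called by edgeR, beside 0.607% of the 13498 genes tested (0.207% higher, 0.4% lower), and 0 by DESeq2, which called 228 of all genes. At an unadjusted p under 0.05 there were 2, Sqstm1 and Atg7, beside 10.7% of all genes tested. Log2 fold changes ran from -0.41 to 0.42 with a median of 0.03. Sqstm1 had 255, 215, 225, 201 and 259 CPM in UB libraries, against 277, 270.1, 359.9, 350.5 and 272 CPM in MC libraries. Every UB library lay below every MC library, at -0.41 ± 0.17 (edgeR adjusted p = 0.349). Atg7, the E1-like enzyme that activates ATG8 proteins, averaged 24.1 ± 3.51 CPM in UB and 31.95 ± 3.44 CPM in MC libraries (SD, n = 5 each), at -0.41 ± 0.16 (adjusted p = 0.342). Map1lc3a, Gabarap and Lamp1, which rose in Uro livers, were at -0.05, 0.17 and -0.22.

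**Figure D4:**
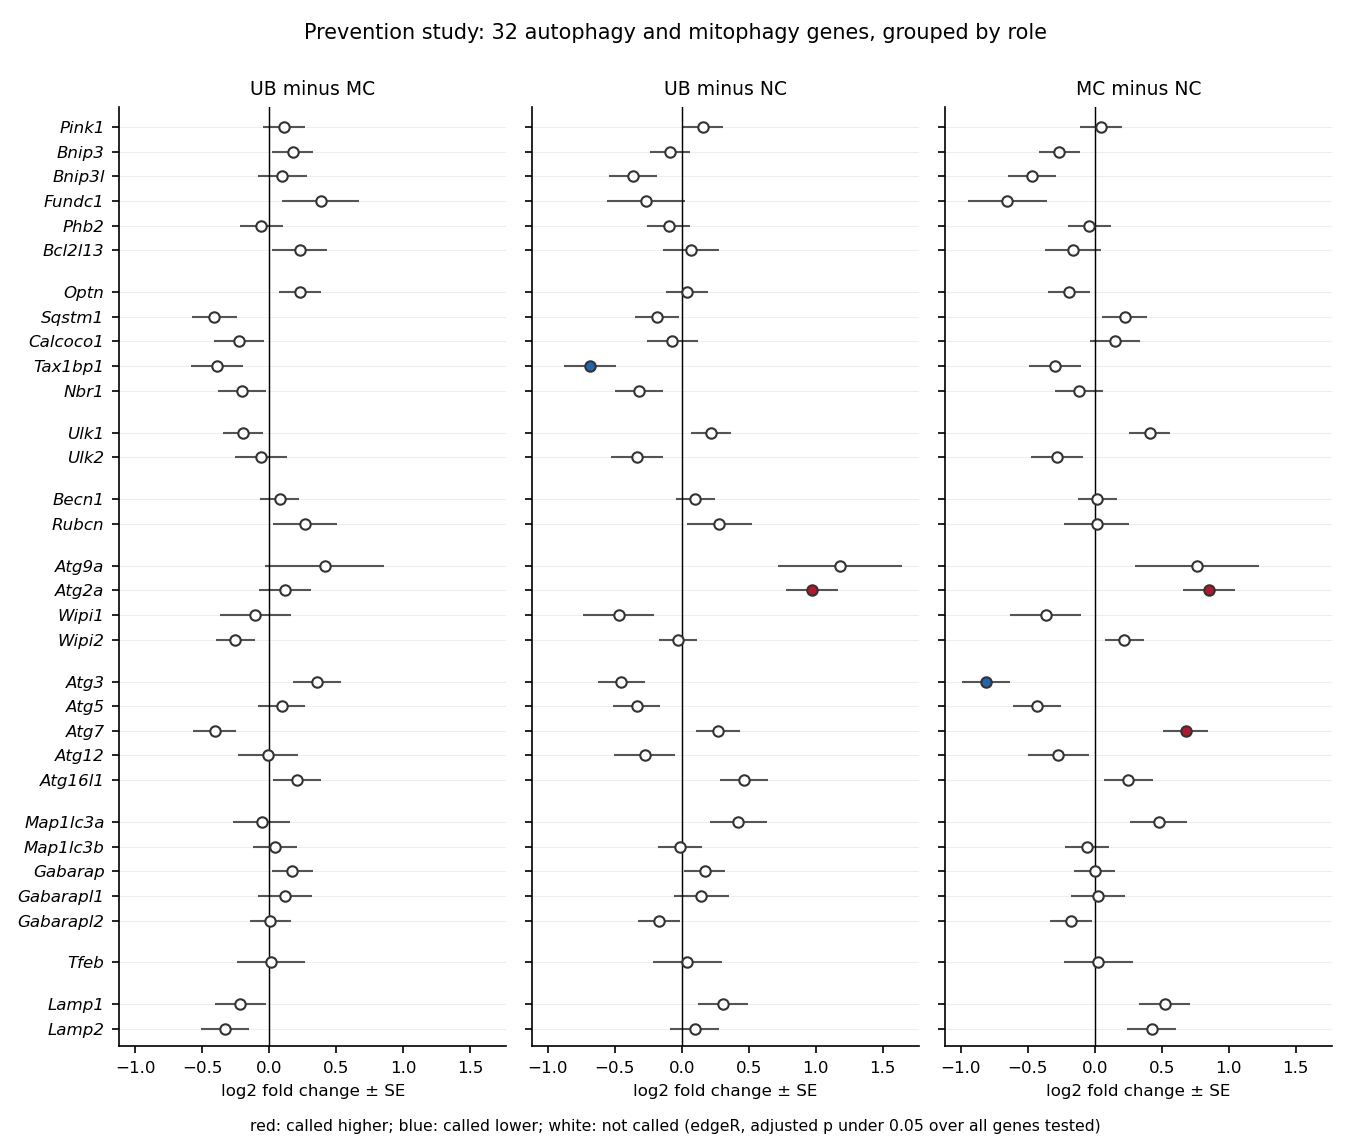
Log2 fold changes (horizontal axis, with SE) of the 32 genes in the 3 comparisons of the prevention study, in the same order by role. No point is filled in UB against MC. In MC against NC, Atg2a and Atg7 (red) and Atg3 (blue) are filled. In UB against NC, Atg2a (red) and Tax1bp1 (blue) are filled. Tax1bp1 was at 0.34 there on the unadjusted TPM scale, or -0.21 relative to the median of all genes.

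The high-fat diet called 3 genes in MC against NC livers, or 9.38% beside 12.2% of all genes tested (6.65% higher, 5.53% lower). Atg2a, which moves lipid into the growing membrane, had 31.7, 27.7, 32.7, 30.9 and 24.6 CPM in MC libraries, against 13.8, 10.5, 18.2, 16.3 and 22.8 CPM in NC libraries. Atg7 had 30.4, 30.9, 36.9, 33.6 and 27.9 CPM in MC libraries, against 22.3, 16.3, 15.7, 22.7 and 22.7 CPM in NC libraries. Both rose without overlap of the groups, Atg2a by 0.85 ± 0.20 (log2, edgeR adjusted p = 0.00737) and Atg7 by 0.68 ± 0.17 (adjusted p = 0.0103). Atg3, the E2-like enzyme of the same reaction, went the other way, with 36.3, 33.8, 31.5, 28.1 and 19.0 CPM in MC libraries, against 50.9, 58.1, 46.4, 58.7 and 46.4 CPM in NC libraries. It was lower in every MC library, at -0.81 ± 0.18 (adjusted p = 0.00521). Atg2a was at 0.0911 on TPM rescaled without mitochondrial genes (limma adjusted p = 0.787), or 0.40 relative to the median of all genes of -0.31. Atg3 was at -0.26 on deposited TPM (limma adjusted p = 0.48), or -0.50 relative to the median there of 0.25. With the mitochondrial share as a covariate, none of the 3 passed in edgeR (389 of all genes did), and the share was 38.6% to 69.1% in MC against 61.5% to 73.4% in NC libraries.

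UB livers set against NC livers, with which MC livers share the fit, had 2 calls, or 6.25% beside 7.8% of all genes tested (4.47% higher, 3.33% lower). Atg2a had 23.3, 38.7, 27.2, 38.3 and 32.8 CPM in UB libraries, all above the NC libraries, at 0.97 ± 0.20 (edgeR adjusted p = 0.00384). Tax1bp1 had 89.8, 74.8, 70.5, 59.9 and 66.2 CPM in UB libraries, against 136, 117, 119.9, 109 and 98.8 CPM in NC libraries. It was lower without overlap, at -0.69 ± 0.19 (edgeR adjusted p = 0.0299). On the TPM scale it was at 0.34, where the median of all genes was 0.55, and so at -0.21 relative to that median. Its call was lost in 6 of 10 fits without 1 library (edgeR adjusted p up to 0.0904). Atg3 averaged 38.2 ± 7.49 CPM in UB and 52.1 ± 6.03 CPM in NC libraries (SD, n = 5 each) and was not called against NC (adjusted p = 0.117).

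The effect of UB-NPs was compared between the studies as the Uro against HFD change minus the UB against MC change, in 1 fit of all 30 libraries. It differed for 7 of 32 genes, all more positive in the treatment study, or 21.9% beside 12.3% of all genes tested (8.54% more positive). They were Map1lc3a (difference 1.61 ± 0.33, edgeR adjusted p = 0.00102), Lamp1 (1.57), Sqstm1 (1.31), Gabarap (1.27), Phb2 (1.13), Lamp2 (1.03) and Pink1 (0.83). On TPM rescaled without mitochondrial genes the balance was the opposite, 1 more positive (Sqstm1, 0.74) and 11 more negative, with a median of all genes of -0.70. Of 14760 genes tested there, 175 were called more positive and 4754 more negative. Pink1 (0.0081), Phb2 (0.0747), Lamp2 (0.15), Gabarap (0.34), Lamp1 (0.56) and Map1lc3a (0.67) were not called there, and Pink1 was not with the length and GC offset (edgeR adjusted p = 0.0523). For Tax1bp1, Nbr1 and Ulk1, which fell in Uro livers on the count scale, the differences of -0.57, -0.54 and -0.48 were not called. The diet effect, HFD against NFD minus MC against NC, differed for 1 gene, Atg2a, at -1.61 ± 0.33 (adjusted p = 0.00449), or 3.12% beside 5.42% of all genes tested (3.42% more negative). Atg2a averaged 18.9 ± 5.598 CPM in HFD and 31.9 ± 11.4 CPM in NFD libraries, a difference not called within the treatment study (log2 fold change -0.71 ± 0.25, adjusted p = 0.0624).

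The levels behind these differences lay apart between the studies, which differ in duration and in whether UB-NPs were given from the start or after 10 weeks of diet; these cannot be told apart from other differences between the studies. Gabarap averaged 125 ± 10.8 CPM in UB, 111 ± 19.7 in MC and 111 ± 11.4 in NC libraries, while it averaged 121 ± 12.2 CPM in Uro, 44.3 ± 14.2 in HFD and 68.1 ± 23.4 in NFD libraries. Pink1 averaged 144 ± 7.69, 133 ± 23.5 and 129 ± 16.9 CPM in UB, MC and NC libraries, and 141 ± 11.9, 73.6 ± 8.49 and 106 ± 27.9 CPM in Uro, HFD and NFD libraries (SD, n = 5 each). In both genes, the means of HFD and NFD libraries were the lowest of the 6. Lamp1 followed another order, with 221 ± 18.7 CPM in Uro libraries above 116 ± 21.4 in UB, 134 ± 35.7 in MC and 93.2 ± 17.6 CPM in NC libraries. Gabarapl1 was lower in all treatment study groups, at 140.3 ± 25.0 CPM in Uro, 81.0 ± 19.2 in HFD and 136 ± 46.7 CPM in NFD libraries, than in UB (299 ± 61.5), MC (275 ± 79.9) and NC libraries (270.1 ± 47.8).

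Promoters were read for the 27 genes with an entry in RefSeq's table (build GRCm38.p6), from 250 bases before to 50 bases after the transcription start. TFEB binds the E-box CACGTG, a palindrome read the same on both strands. It was present in 6 of 27 promoters (Atg3, Atg5, Atg7, Bnip3, Lamp1 and Rubcn), or 22.2%, against 8.09% of 27025 genes with a promoter entry, and the members' promoters had a higher median GC content (60.7% against 52.8%). Those of Lamp1, which rose in Uro livers, and of Atg7 and Atg3, which moved in opposite directions in MC livers, are shown on their own strand, 5′ to 3′, with each E-box in capitals. They lie at chr8:13158911-13159210 (Lamp1), chr6:114670846-114671145 (Atg7) and chr16:45158579-45158878 (Atg3), all on the plus strand. Judged by the shift between builds at Bcl2l13 and Tax1bp1 on the same chromosome, the Atg7 window lies inside the gene. Its E-box, counted among the 6, is therefore at a listed start downstream of the gene's annotated 5′ end.
Lamp1: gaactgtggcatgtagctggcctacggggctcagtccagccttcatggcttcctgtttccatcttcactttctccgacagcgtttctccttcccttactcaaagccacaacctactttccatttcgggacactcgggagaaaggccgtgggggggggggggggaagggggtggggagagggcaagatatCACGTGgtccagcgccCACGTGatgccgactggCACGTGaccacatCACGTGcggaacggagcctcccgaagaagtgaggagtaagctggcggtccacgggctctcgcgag
Atg7: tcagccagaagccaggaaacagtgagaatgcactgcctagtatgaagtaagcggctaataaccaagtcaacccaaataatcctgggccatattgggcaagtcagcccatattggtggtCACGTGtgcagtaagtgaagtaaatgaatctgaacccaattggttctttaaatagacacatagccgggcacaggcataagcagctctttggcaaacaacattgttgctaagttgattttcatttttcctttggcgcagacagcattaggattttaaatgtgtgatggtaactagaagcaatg
Atg3: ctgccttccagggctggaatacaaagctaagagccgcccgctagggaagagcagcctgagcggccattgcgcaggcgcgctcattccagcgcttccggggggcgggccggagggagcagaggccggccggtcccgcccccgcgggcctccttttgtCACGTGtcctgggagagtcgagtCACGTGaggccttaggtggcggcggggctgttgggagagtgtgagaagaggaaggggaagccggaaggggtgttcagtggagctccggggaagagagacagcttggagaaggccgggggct
Lamp1 carried 4 E-boxes, Atg3 carried 2 and Atg7 carried 1. Atg3, Atg5, Atg7, Bnip3 and Rubcn, which carry an E-box, were not called in Uro against HFD livers. Of the members called higher there, only Lamp1 had an E-box in its window, and Map1lc3a had no promoter entry. The extended form TCACGTGA was found in 1 member's promoter, Atg3, and in 1.13% of all genes. The shorter ACGTG, the core of the hypoxia element, which every E-box contains, was in 12 of 27 (44.4%) and 21.8% of all genes, on either strand. The antioxidant element TGACNNNGC was in 4 (14.8%), against 14.0% of all genes. The FOXO element GTAAACA was in 0 of 27 windows, against 4.05% of all genes.

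Further genes of the pathway were counted from lists chosen by function. Against HFD, Uro livers had 7 of 30 further core autophagy genes called higher and 2 lower, and 6 of 25 further mitophagy genes higher and 2 lower, beside 15.3% higher and 11.7% lower of all genes tested. Atg101, a subunit of the ULK1 complex, rose by 1.74 ± 0.32 (log2, edgeR adjusted p = 0.000422), and Fis1, a mitochondrial fission protein, by 1.22 ± 0.21 (adjusted p = 0.000146). Tomm7, a translocase subunit that stabilises PINK1, rose by 1.31 ± 0.25 (adjusted p = 0.000596), and the ubiquitin ligase Mul1 by 1.10 ± 0.23 (adjusted p = 0.00135). Tecpr1, which links autophagosomes to lysosomes, was at -0.998 ± 0.23 (adjusted p = 0.00303), although at 0.07 on the TPM scale. Wdr45, a relative of Wipi1, was at 0.76 ± 0.17 (adjusted p = 0.00193), although at -0.42 on TPM rescaled without mitochondrial genes.

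Lysosomal genes were counted in the same way. In Uro against HFD livers 12 of 29 lysosomal hydrolases and membrane proteins and 9 of 15 proton pump subunits were higher and 0 lower, beside 15.3% and 11.7% of all genes, with medians of 0.55 and 0.71 against -0.08 over all genes tested. On TPM rescaled without mitochondrial genes, these medians were -0.14 and -0.03, but 0.37 and 0.47 relative to the median of all genes. Ctsz, a cathepsin, averaged 230.4 ± 59.6 CPM in Uro and 96.7 ± 21.0 CPM in HFD libraries (SD, n = 5 each), and Lipa, the lysosomal acid lipase that hydrolyses cholesteryl esters and triglycerides, averaged 74.3 ± 14.5 CPM in Uro and 34.9 ± 9.61 CPM in HFD libraries. Smpd1, acid sphingomyelinase, rose by 1.23 ± 0.24 (log2, edgeR adjusted p = 0.000667), and the pump subunits Atp6v1d by 1.25 ± 0.23 (adjusted p = 0.000357), Atp6v1f by 1.30 ± 0.25 (adjusted p = 0.000544) and Atp6ap1 by 1.15 ± 0.23 (adjusted p = 0.000648). Against NFD livers, Uro livers had 24 of 29 and 11 of 15 called higher and 0 lower, beside 16.1% and 12.3% of all genes, with medians of 1.09 and 0.78. Markers of lipid-associated macrophages moved with this comparison, 5 of 8 higher and 0 lower (median 2.00; sums of 86.1 to 267 CPM in Uro and 29.97 to 82.9 CPM in NFD libraries, none at 0). Of 10 Kupffer cell markers, 4 were higher and 0 lower, with sums of 204 to 366 CPM in Uro and 126 to 243 CPM in NFD libraries. Their part was not tested.

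Lysosomal hydrolases and membrane proteins were also called in the diet comparisons. In MC against NC livers 14 of 29 were higher and 1 lower, and 5 of 15 pump subunits were higher, beside 6.65% higher and 5.53% lower of all genes. In HFD against NFD livers 9 of 29 were higher and 2 lower, beside 7.19% and 5.96% of all genes, led by Cd63, which averaged 43.6 CPM in HFD and 7.78 CPM in NFD libraries (2.53 ± 0.37, edgeR adjusted p = 0.00034), while 0 of 15 pump subunits were called. With the mitochondrial genes removed from TPM, 0 hydrolases were called higher and 1 lower in MC against NC, with a median of 0.08, or 0.39 relative to that of all genes. Of 13474 genes tested there, 225 were called higher and 2505 lower. Markers of lipid-associated macrophages, cells rich in lysosomes, moved with both diet comparisons, 4 of 8 called higher in MC against NC and 6 of 8 in HFD against NFD, with 0 lower. Their summed level was 71.0 to 489 CPM in HFD and 29.97 to 82.9 CPM in NFD libraries, with none of the 8 at 0 in either group. In Uro against HFD, 1 of 8 was higher and 1 lower, and the sum was 86.1 to 267 CPM in Uro libraries. Of 10 Kupffer cell markers, 0 were higher and 2 lower in MC against NC, and 3 were higher and 0 lower in HFD against NFD. The part of these cell types in the lysosomal changes was not tested. No gene of any further list was called in UB against MC by edgeR.

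**Figure D5:**
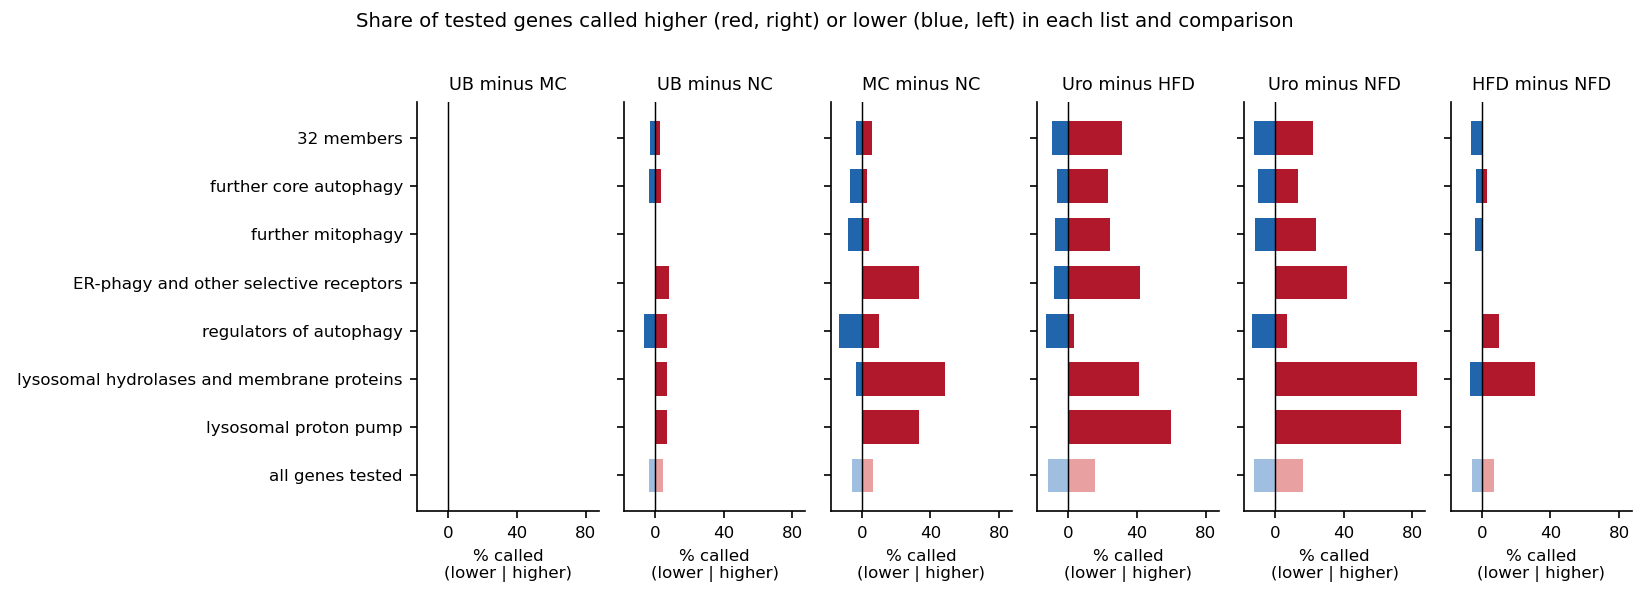
Percent of tested genes called higher (red, right of 0) or lower (blue, left of 0) in the 32 members, 6 further lists and all genes tested, for each comparison. Bars for lysosomal genes reach furthest to the right in Uro against NFD (24 of 29 and 11 of 15), whereas UB against MC has none in any list; on TPM rescaled without mitochondrial genes the lysosomal medians of Uro against HFD fall below 0.

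Among selective receptors for the endoplasmic reticulum and other cargo, 5 of 12 rose and 1 fell in Uro against HFD livers (15.3% and 11.7% of all genes), and 4 rose in MC against NC (6.65% of all genes). Retreg3, a reticulon-type receptor, was higher by 0.97 ± 0.19 (log2, edgeR adjusted p = 0.00072) in Uro livers, Ccpg1 by 1.01 ± 0.22 (adjusted p = 0.0014) and Retreg2 by 1.03 ± 0.23 (adjusted p = 0.00193). Tex264, a receptor of the endoplasmic reticulum, had the lowest adjusted p of the 4 in MC livers, at 1.46 ± 0.26 (adjusted p = 0.00105). Of the regulators, 1 of 30 was higher and 4 were lower in Uro against HFD livers, shares near or under those of all genes. Deptor, an inhibitor of mTOR, averaged 53.9 CPM in Uro and 94.4 CPM in HFD libraries (-0.78 ± 0.18, adjusted p = 0.00298), although at 0.29 on the TPM scale. Fnip1, a partner of folliculin in amino acid sensing, averaged 28.5 CPM in Uro and 71.4 CPM in NFD libraries (-1.25 ± 0.20, adjusted p = 0.000104), although at 0.18 on the TPM scale.

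In the authors' deposited table of calls, 5 of the 32 genes were called higher in Uro against HFD: Phb2, Atg9a, Map1lc3a, Gabarap and Lamp1. That comparison had 2852 calls over all genes. The same table listed 3 higher in Uro against NFD, Atg9a, Map1lc3a and Lamp1, and 0 in the other comparisons within a study. Calls over all genes numbered 2898 in Uro against NFD and 1274 in HFD against NFD. They numbered 851 in MC against NC, 678 in UB against NC and 128 in UB against MC. The table also holds HFD against MC, across the studies, with 1851 calls over all genes and 5 members lower in HFD: Bnip3l, Sqstm1, Map1lc3a, Gabarap and Gabarapl1. It had entries only for Bnip3l, Phb2, Sqstm1, Atg9a, Map1lc3a, Gabarap, Gabarapl1 and Lamp1, and gave no direction for the other members. Its thresholds are not given in the sources used here.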

How the data were processed

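RNA from mouse liver was sequenced in 30 libraries, grouped by their labels; the kit was stranded and selected poly(A) RNA, per the labels' protocols. The authors deposited unscaled expected counts per gene, of which 4.02% to 7.03% per library were not whole numbers. The deposited TPM, made by the authors, were used only in alternatives. The submitters' processing notes name the build GRCm39 and the tools HISAT2, StringTie, fastp and DESeq2; how shared reads were counted is not given in the sources used here.

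Counts were rounded and tested with edgeR 4.0.16 (quasi-likelihood, filterByExpr, TMM, Benjamini-Hochberg over all genes), in 1 fit of 15 libraries per study, and of all 30 for differences between studies. Adjusted p-values are from these fits, and SEs are the log2 fold change over the square root of F. limma 3.58.1 tested log2(TPM + 1), and DESeq2 1.42.0 was an alternative. The 9 planned and 4 added alternatives and the leaving out of each library are given in the closing section; the added ones were chosen after seeing the data. The scripts were tested on simulated data. Mitochondrial shares count 37 mitochondrial genes and 30 nuclear copies (at least 80% identity over 50% of length). Of the gene IDs, 56620 matched GENCODE M39. Members and lists were chosen with earlier results of these data known. Beyond the members, the text names up to 3 genes per list and comparison, those with the lowest adjusted p among the called. In none of the comparisons did same-numbered libraries deviate together (0 to 2 of 5 pairs over 0.1), so the numbers do not pair them. No 2 libraries of a group held identical values (0 of 60 pairs).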

Additional observations from a re-analysis of the deposited data

Results flagged for a closer look

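Single libraries stood apart in 5 of 192 sets of 5 libraries; chance alone flags about 1 in 20 such sets. Each of the following values lay far from the other 4 libraries of its group. Ulk2 was at 39.3 CPM in NFD replicate 5. Tfeb was at 18.5 CPM in the same library. Rubcn was at 15.7 CPM in NFD replicate 4. Atg2a was at 28.6 CPM in HFD replicate 2. Atg5 was at 22.3 CPM in Uro replicate 5.

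The response differed between the 2 studies for 8 genes, by a test of the difference itself in edgeR over 30 libraries. For UB-NPs, the Uro against HFD change minus the UB against MC change was 1.61 for Map1lc3a (adjusted p = 0.00102), 1.57 for Lamp1 (adjusted p = 0.000515), 1.31 for Sqstm1 (adjusted p = 0.000715) and 1.27 for Gabarap (adjusted p = 0.00311) on the log2 scale. It was 1.13 for Phb2 (adjusted p = 0.00118), 1.03 for Lamp2 (adjusted p = 0.00774) and 0.83 for Pink1 (adjusted p = 0.0191). For the diet, the HFD against NFD change minus the MC against NC change was -1.61 for Atg2a (adjusted p = 0.00449). With the mitochondrial share as a covariate, none of the 7 differences for UB-NPs was called by edgeR. That fit called 0 of all 14784 genes tested, so it cannot single out these 7.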

How the results depend on the processing

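On deposited TPM, the counts of members called were 8 for MC against NC, 27 for UB against NC, 0 for HFD against NFD, 28 for Uro against HFD, 32 for Uro against NFD, and 0 and 12 for the differences between studies in diet and UB-NP effects. Of all genes, 2078, 7665, 625, 7997, 10714, 59 and 2575 were called there, in the same order. The genes tested were 13498 in the prevention study, 14163 in the treatment study and 14784 for the differences. On TPM rescaled without mitochondrial genes the member counts were 13 (1 higher, 12 lower), 0, 1, 15 (4 higher, 11 lower), 13 (5 higher, 8 lower), 5 and 12 (1 higher, 11 lower). Of all genes, 2730, 555, 2139, 5839, 3808, 2422 and 4929 were called there. For MC against NC, Uro against HFD, Uro against NFD and the UB-NP difference, 2505, 5239, 2877 and 4754 of these were lower. When each library's mitochondrial share was fitted as a covariate, members called numbered 0, 0, 6, 0 and 0 for the same 5 comparisons. The UB-NP difference had 0. Of all genes, 389, 71, 2010, 2 and 0 were called in these 5 comparisons, and 0 in the UB-NP difference. Only 2, 0 and 0 of all genes were thus called in Uro against HFD, Uro against NFD and the UB-NP difference. In these, the share separates Uro libraries from the others. HFD against NFD gave 7 members with DESeq2, 1 without the filter, 0 with its 10 libraries alone, 8 in the fit of all 30, 10 with the length and GC offset and 1 without the highest mitochondrial share of each group. Of all genes, the counts in that order were 2618, 1678, 1081, 2016, 2606 and 1697. Uro against NFD gave 7 members without the filter and 10 (4 higher, 6 lower) with the offset, UB against NC 4 without the highest share, and the diet difference 2 with the offset. Of all genes, the counts in that order were 4076, 4086, 1074 and 767. The cause of these shifts was not tested.

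With the replicate number as a block (replicate block), which the labels do not say pairs libraries (correlations of same-numbered libraries -0.198 to 0.158; 0 to 2 of 5 matched their own number best), the counts were 4 for MC against NC, 0 for UB against MC, 2 for UB against NC, 0 for HFD against NFD, 12 for Uro against HFD, 10 for Uro against NFD, and 1 and 7 for the differences. Of all genes, the counts in that order were 1907, 96, 1246, 1411, 3366, 3595, 714 and 1725.

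Leaving out 1 library gave 3 to 6 calls in MC against NC (6 without NC replicate 5), 0 to 0 in UB against MC, 1 to 3 in UB against NC, 0 to 7 in HFD against NFD, 12 to 14 in Uro against HFD, 8 to 11 in Uro against NFD, 1 to 5 in the diet difference (5 without NFD replicate 4; 2 without HFD replicate 2, NFD replicate 5 or MC replicate 5) and 7 to 8 in the UB-NP difference. UB against NC had 1 without UB replicate 3, 4 or 5 or NC replicate 1, 2 or 3. In those fits 550 to 696 of all genes were called, beside 1053 with all libraries. Leaving out 1 library gave 3023 to 3661 calls over all genes in Uro against HFD, beside 3836. In Uro against NFD it gave 3216 to 4222, beside 4027. The UB-NP difference had 8 members without MC replicate 2, where 1716 of all genes were called, beside 1818. Of all genes, 2315 were called in MC against NC without NC replicate 5, beside 1645 with all libraries. In the diet difference, 1073 of all genes were called without NFD replicate 4, beside 801 with all libraries.

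Signs reversed on TPM for Tax1bp1 (0.34 in UB against NC, 0.12 in Uro against HFD, 0.72 in Uro against NFD), Nbr1 (0.42 in Uro against HFD), Ulk1 (0.42 against HFD, 0.74 against NFD), and Ulk2 (0.58) and Gabarapl2 (1.12) against NFD. The TPM medians of all genes were 0.55 in UB against NC, 0.55 in Uro against HFD and 0.76 in Uro against NFD. Relative to these medians, only Gabarapl2 was positive (0.36). With the share as a covariate signs reversed for Tax1bp1 (0.0624 in UB against NC), Calcoco1 (-0.34), Atg9a (-2.33 against HFD, -1.37 against NFD), Lamp2 (-0.39 and -0.37), Phb2 (-0.0437 against NFD) and Ulk2 (0.34 against NFD). On rescaled TPM, Calcoco1 was at -0.18. Of the other values for single genes, 827 kept direction and side of the threshold and 117 kept direction only. These counts pool the alternatives with the fits without 1 library, which repeat the main fit on most of its libraries. With the share as a covariate, 3 values kept both and 28 kept direction only. On rescaled TPM, 19 kept both and 19 kept direction only. With counts thinned to 3.14 M outside mitochondrial genes, the lowest of any library, 13 members were called in Uro against HFD and 3 in HFD against NFD. Of 12110 genes tested there, 3504 and 1655 were called.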
